A study of Homo sapiens with 16 samples.

Results

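FERMT1, which encodes kindlin-1, and 9 partner genes of the focal adhesion (FERMT2, TLN1, VCL, PXN, ZYX, ACTN1, PTK2, ILK and PARVA) were followed on 16 one-colour Agilent expression arrays of the human bronchial epithelial line 16HBE. The members were chosen by name: all 16 array probes whose gene name matched 1 of the 10 genes were taken, out of 58201 probes, and the 10 genes stand among 26372 gene names with a measurable probe. FERMT1 was picked for its rise with hepatocyte growth factor (HGF), so its values are given below as a description, and it was tested only between the genotypes without HGF. HGF is the ligand of the receptor tyrosine kinase MET. The 4 groups of 4 arrays each were the unedited line, 16HBE-WT, and the edited line, 16HBE-ex14, each without HGF, and both again with it, named 16HBE-WT+HGF and 16HBE-ex14+HGF. The line itself was immortalised with SV40 large T antigen, so all 4 groups carry it. 16HBE-ex14 is 1 clone (F) in which CRISPR/Cas9 editing made MET skip exon 14, and clone and genotype therefore cannot be told apart. Both lines were held 2 hours without serum, and the stimulated groups received 20 ng/mL HGF for 24 hours.

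Focal adhesions couple integrins in the cell membrane to actin filaments inside the cell. Talin and the kindlins bind the integrin tail and switch the integrin on; vinculin and alpha-actinin link talin to actin; paxillin and zyxin are scaffolds of the plaque; focal adhesion kinase, and the complex of integrin-linked kinase with a parvin, carry signals from it. Kindlin-1 is the kindlin of epithelia, lost in Kindler syndrome, a blistering skin disease, whereas kindlin-2 is made in most tissues.

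The 60-base array probes below are shown because FERMT1 and PXN are the genes with the largest differences that more than 1 probe measured, ZYX is one of the genes that fell with HGF, and ILK is a partner for which no difference passed the test. Sequences and hg19 positions are those of the array design, 5′ to 3′ along the transcript; all letters are lower case because no stretch is singled out. FERMT1 probe 2 lies at chr20:6068460-6068519 (minus strand), PXN probe 2 at chr12:120651646-120651705 (minus), the ZYX probe at chr7:143087000-143087059 (plus) and the ILK probe at chr11:6631739-6631798 (plus).
FERMT1 probe 2: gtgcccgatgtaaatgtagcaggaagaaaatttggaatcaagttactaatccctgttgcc
PXN probe 2: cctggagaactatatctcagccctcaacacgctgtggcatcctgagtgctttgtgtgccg
ZYX: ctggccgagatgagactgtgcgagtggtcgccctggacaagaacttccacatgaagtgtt
ILK: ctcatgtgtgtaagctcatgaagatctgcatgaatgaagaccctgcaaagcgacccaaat

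Levels are log2 intensities minus the 75th percentile of the same array, so 0 is that percentile and a difference of 1 is a 2-fold change. They were compared between groups for 1 probe at a time and not between probes, except in the summed levels of cell type markers. A gene stands for its brightest tested probe, whereas the shares over all probes count every tested probe. A change was called where limma's test across all 34604 tested probes gave an adjusted p below 0.05 (Benjamini-Hochberg) and the fold change exceeded 1.5, which is 0.585 on the log2 scale. Of the 16 member probes, 15 were well above background on at least 4 arrays and were tested. The remaining one, FERMT1 probe 3 at chr20:6101032-6101091, stayed under that limit on all 16 arrays.

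FERMT1 was highest in 16HBE-ex14+HGF, at 2.69 times its level in unstimulated 16HBE-ex14, against 1.32 times for the same step in 16HBE-WT. On probe 1 (chr20:6055830-6055889, minus strand) the 16HBE-WT arrays read 2.09, 2.42, 2.58 and 2.74. With HGF the 16HBE-WT arrays read 2.89, 2.67, 2.89 and 2.996. Unstimulated 16HBE-ex14 gave 2.59, 2.56, 3.30 and 2.69, and 16HBE-ex14+HGF gave 4.21, 3.92, 4.61 and 4.13. All 4 stimulated 16HBE-ex14 arrays thus lay above all 12 others, and the other groups overlapped.

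In order of their means, the FERMT1 levels were 2.46 ± 0.28 (SD, n = 4) in 16HBE-WT, 2.79 ± 0.35 in 16HBE-ex14, 2.86 ± 0.14 in 16HBE-WT+HGF and 4.21 ± 0.29 in 16HBE-ex14+HGF. The first 3 are neighbours whose arrays overlap. The log2 difference made by HGF was 1.43 in 16HBE-ex14 and 0.40 in 16HBE-WT, a difference of 1.03 between the genotypes, and stimulated 16HBE-ex14 stood 1.35 above stimulated 16HBE-WT. Because these samples were those FERMT1 was chosen on, none of these 4 values was tested. Between the genotypes without HGF, the only comparison tested, 16HBE-ex14 was 0.33 higher on the log2 scale (SE 0.19, 95% interval -0.07 to 0.73, limma adjusted p = 0.268), which did not pass. The unstimulated arrays also entered the rise FERMT1 was picked on, so this comparison is not free of that choice. Without the 16HBE-ex14 array at 3.30 (replicate 3) the difference was 0.155 (limma adjusted p = 0.623).

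The second FERMT1 probe, printed above, gave the same order with values of its own. Its group means were -2.02 ± 0.11 in 16HBE-WT, -1.76 ± 0.43 in 16HBE-ex14, -1.66 ± 0.12 in 16HBE-WT+HGF and -0.42 ± 0.35 in 16HBE-ex14+HGF (SD, n = 4). HGF added 1.34 in 16HBE-ex14 and 0.36 in 16HBE-WT on the log2 scale, and on this probe the 4 stimulated 16HBE-WT arrays were all above the 4 unstimulated ones. Without HGF the genotypes differed by 0.26 (limma adjusted p = 0.424). Across the 16 arrays the probes correlated at r = 0.966, a description of signals from the same RNA.

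The 16 arrays lay on 2 slides of 2 rows, every row carrying the 4 groups once. On slides 1 and 2 the FERMT1 difference with HGF was 1.49 and 1.37 in 16HBE-ex14, and 0.52 and 0.28 in 16HBE-WT. By row it ran from 1.30 to 1.62 in 16HBE-ex14 and from 0.25 to 0.79 in 16HBE-WT. Rows are not known to pair cultures, and these ranges describe the rise FERMT1 was chosen on.

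**Figure D1:**
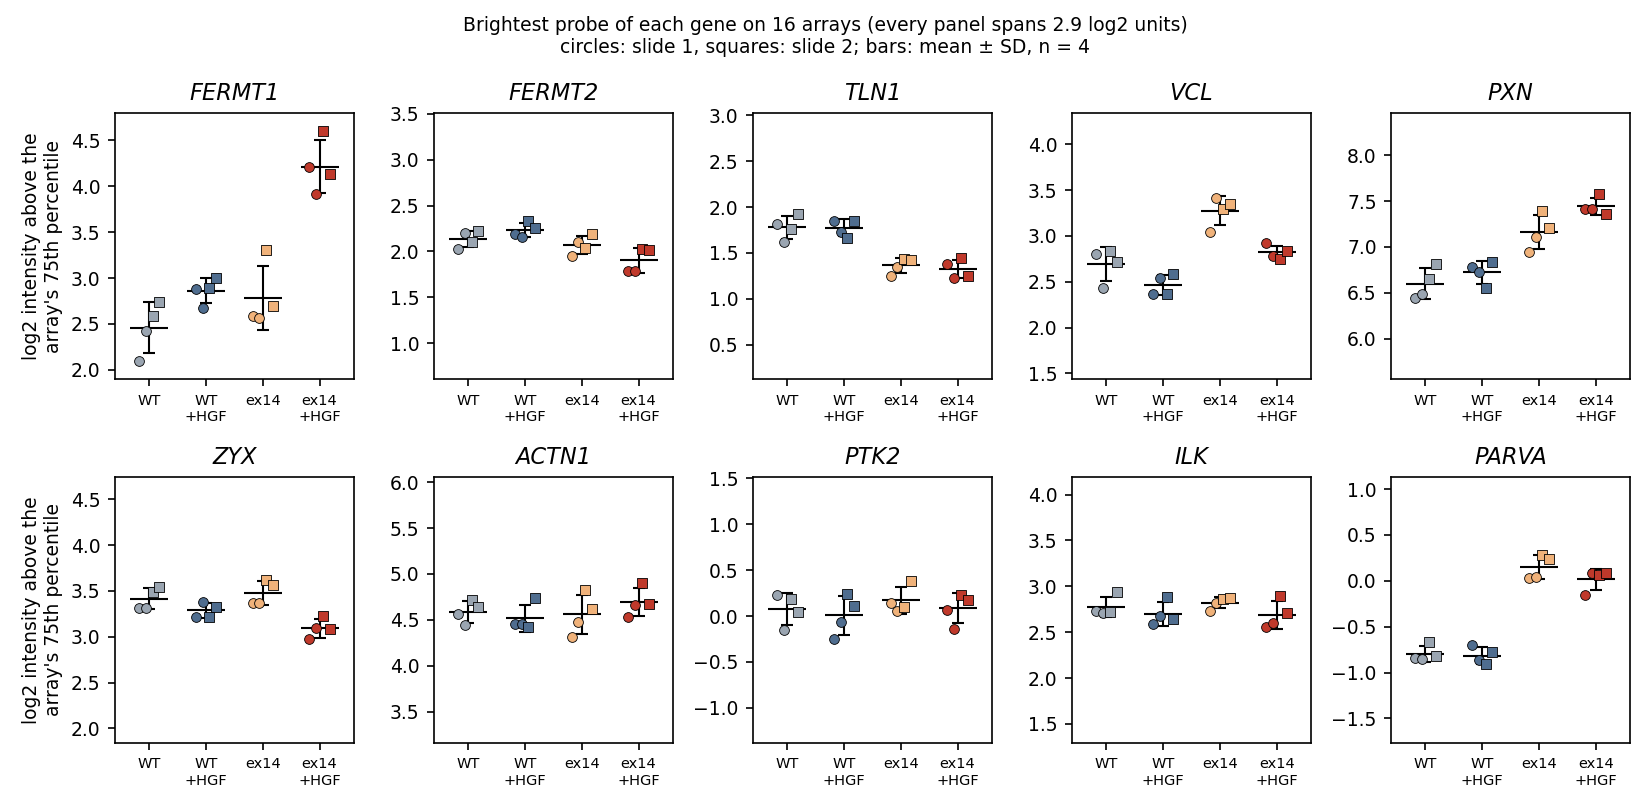
Level of the brightest probe of each of the 10 genes on the 16 arrays (y axis: log2 intensity minus the array's 75th percentile; x axis: the 4 groups; circles slide 1, squares slide 2; bars mean ± SD, n = 4). The FERMT1 points of 16HBE-ex14+HGF, from 3.92 to 4.61, lie apart from all others, whereas PARVA separates by genotype with or without HGF.

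FERMT2, encoding kindlin-2, did not share that pattern. Its probe 1 (chr14:53324023-53324082) averaged 2.14 ± 0.09 in 16HBE-WT and 2.23 ± 0.08 once it was stimulated, against 2.07 ± 0.10 in 16HBE-ex14 and 1.90 ± 0.13 with stimulation (SD, n = 4). With HGF it differed by -0.16 in 16HBE-ex14 (95% interval -0.36 to 0.03, limma adjusted p = 0.449) and by 0.10 in 16HBE-WT (adjusted p = 1.00). In the presence of HGF it was lower in 16HBE-ex14 than in 16HBE-WT by 0.33 (interval -0.52 to -0.14, limma adjusted p = 0.0178), with all 4 arrays lower (1.79, 1.78, 2.03 and 2.01 against 2.19, 2.15, 2.33 and 2.25). That is 1.26-fold and under the fold limit, and its adjusted p was above 0.05 with normexp background correction (0.0737), with scaling to the array median (0.273) and without 16HBE-WT+HGF replicate 3 or 16HBE-ex14+HGF replicate 1 or 2 (up to 0.0588). FERMT2 probe 2, designed to another transcript variant, gave -0.25 for the same comparison and did not pass (limma adjusted p = 0.171).

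VCL and ZYX fell with HGF in 16HBE-ex14, by less than 1.5-fold, and none of the 9 partners was called. Of these 9, 2 had a limma adjusted p below 0.05 and 3 an unadjusted p below 0.05; over all tested probes 2.00% were called in this comparison and 2.88% had an adjusted p below 0.05 at any fold. The arrays of the stimulated and unstimulated groups did not overlap for the same 2 of 9 genes, VCL and ZYX, against 8.84% of all probes. The median log2 fold change of the 9 was -0.13, beside 0.05 over all tested probes.

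VCL encodes vinculin, which binds talin and actin and reinforces adhesions under tension. Its arrays (chr10:75879227-75879286) read 3.04, 3.41, 3.30 and 3.34 in 16HBE-ex14 and 2.92, 2.79, 2.75 and 2.83 in 16HBE-ex14+HGF. Every stimulated array was below every unstimulated one, a log2 difference of -0.45 (SE 0.11, 95% interval -0.68 to -0.22, limma adjusted p = 0.0370). In 16HBE-WT the arrays read 2.81, 2.43, 2.83 and 2.72 without and 2.37, 2.54, 2.37 and 2.58 with HGF, which overlap, and differed by -0.23 (interval -0.463 to 0.0007, limma adjusted p = 1.00). The difference between these responses, -0.22 (interval -0.55 to 0.11), did not pass.

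ZYX encodes zyxin, a LIM protein found at the actin end of adhesions and on stress fibres. It read 3.37, 3.37, 3.62 and 3.57 in 16HBE-ex14 and 2.97, 3.09, 3.22 and 3.08 in 16HBE-ex14+HGF. All stimulated arrays were lower, by 0.39 in mean (log2 difference -0.39, SE 0.09, 95% interval -0.59 to -0.19, limma adjusted p = 0.0365). In 16HBE-WT its levels were 3.31, 3.32, 3.49 and 3.54 without and 3.22, 3.38, 3.22 and 3.33 with HGF. These overlap, with a difference of -0.13 (interval -0.33 to 0.07). On slides 1 and 2 the differences in 16HBE-ex14 were -0.37 and -0.53 for VCL, and -0.34 and -0.44 for ZYX.

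Both falls depended on the setting. The direction was the same at all alternative settings, but the adjusted p of VCL was above 0.05 at 3 of 6 (up to 0.0908, without the filter on dim probes) and that of ZYX at 2 of 6 (up to 0.0978, same setting). With 1 array left out, it was above 0.05 for VCL in 8 of 16 cases (16HBE-WT replicate 4, 16HBE-WT+HGF replicate 2, and replicates 2, 3 and 4 of both 16HBE-ex14 groups), up to 0.135 without 16HBE-ex14 replicate 2. For ZYX it was above 0.05 in 8 of 16 cases (16HBE-WT+HGF replicate 1, 16HBE-ex14 replicates 2, 3 and 4, and all 4 of 16HBE-ex14+HGF), up to 0.125 without 16HBE-ex14 replicate 4.

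The other partners differed little with HGF in 16HBE-ex14. PXN was the other gene with an unadjusted p below 0.05, with a log2 difference of 0.28 (95% interval 0.04 to 0.52, limma adjusted p = 0.255). ACTN1 (alpha-actinin-1) differed by 0.13 (interval -0.13 to 0.39), TLN1 by -0.04 (-0.23 to 0.15), PTK2 (focal adhesion kinase) by -0.09 (-0.36 to 0.19), ILK by -0.13 (-0.34 to 0.07) and PARVA by -0.13 (-0.33 to 0.07). Each of these intervals lies within 0.585 of 0, the fold limit.

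In 16HBE-WT none of the 9 partners passed the test with HGF, and 0 of 9 had even an unadjusted p below 0.05. The lowest was that of VCL (limma unadjusted p = 0.0506). Over all tested probes 0% were called, and 2.61% had arrays that did not overlap, against 0 of the 9. The log2 differences of the 9 ran from -0.23 (VCL) to 0.12 (PXN). The test of the difference between the HGF responses of the genotypes called 0 of 9 partners, 0 with an unadjusted p below 0.05, and 0% of all probes, so no partner can be said to respond differently in the 2 lines; the differences ran from -0.26 (FERMT2) to 0.21 (ACTN1).

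**Figure D2:**
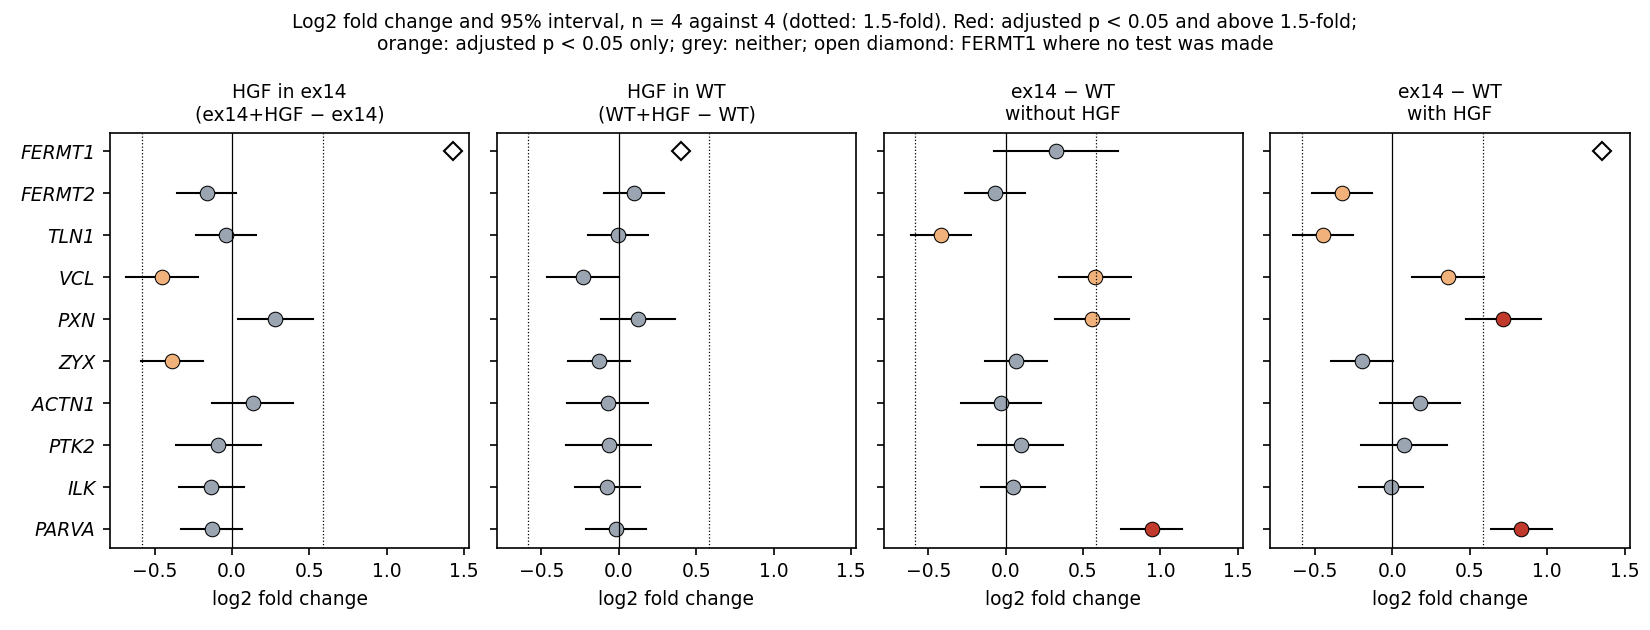
Log2 fold change (x axis) of each of the 10 genes (y axis) with its 95% interval in 4 comparisons, n = 4 arrays against 4; dotted lines mark 1.5-fold, red points passed both thresholds, orange points the adjusted p alone, and open diamonds are FERMT1 where no test was made. The HGF panels hold no red point, and PARVA (0.94 and 0.83) and, with HGF, PXN (0.72) are red between the genotypes.

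Between the genotypes PARVA and PXN were higher in 16HBE-ex14, VCL was higher and TLN1 lower by less than 1.5-fold. FERMT1, whose unstimulated arrays entered its choice, is left out of the counts that follow. Without HGF 1 of the 9 partners was called, PARVA, against 9.40% of all tested probes. The 2 shares are close, so this count does not set the members apart. An adjusted p below 0.05 at any fold was reached by 4 of the 9 (PARVA, VCL, PXN and TLN1), against 18.3% of all. The same 4 had arrays that did not overlap, against 21.4% of all. With HGF 2 of 9 partners were called, PARVA and PXN, against 10.8% of all. With HGF 5 of 9 reached an adjusted p below 0.05 (these 4 and FERMT2), against 20.6%, and 5 of 9 had arrays that did not overlap, against 23.9%. The medians on the log2 scale were 0.08 without HGF (FERMT1 included) and 0.07 with HGF (the 9 partners). They stood beside -0.02 and -0.004 over all probes.

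PARVA encodes alpha-parvin, the actin-binding partner of integrin-linked kinase. Its arrays (chr11:12551259-12551318, plus strand) read -0.85, -0.85, -0.67 and -0.82 in 16HBE-WT and -0.70, -0.86, -0.91 and -0.78 in 16HBE-WT+HGF. In 16HBE-ex14 they read 0.04, 0.04, 0.28 and 0.24, and in 16HBE-ex14+HGF -0.15, 0.08, 0.06 and 0.08. All 8 arrays of 16HBE-ex14 were above all 8 of 16HBE-WT. The log2 difference was 0.94 without HGF, or 1.92-fold (SE 0.09, 95% interval 0.75 to 1.14, limma adjusted p = 1.002e-05), and 0.83 with HGF, or 1.78-fold (interval 0.64 to 1.03, limma adjusted p = 2.568e-05). With normexp background correction the difference with HGF was 0.54, under the fold limit, and the call was lost. On the slides it was 0.89 and 1.00 without, and 0.75 and 0.92 with HGF. ILK itself, from the same complex, differed by 0.05 without HGF (interval -0.16 to 0.26) and by -0.01 with it (-0.22 to 0.20).

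PXN encodes paxillin, the plaque scaffold phosphorylated by focal adhesion kinase. On probe 1 (chr12:120648265-120648324, minus strand) 16HBE-WT read 6.45, 6.49, 6.66 and 6.81 and 16HBE-ex14 6.94, 7.10, 7.39 and 7.20. With HGF the levels were 6.78, 6.73, 6.55 and 6.84 in 16HBE-WT and 7.41, 7.42, 7.57 and 7.36 in 16HBE-ex14. In both pairs all 16HBE-ex14 arrays were the higher ones. The log2 difference was 0.56 without HGF, 1.47-fold and just under the limit (95% interval 0.32 to 0.80, limma adjusted p = 0.00302), and 0.72 with HGF, 1.64-fold (interval 0.48 to 0.96, limma adjusted p = 0.000428). Whether the difference was larger with HGF was tested and did not pass (0.16, interval -0.18 to 0.50).

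The 3 PXN probes did not move alike. Probe 2, printed above, differed by 0.42 without HGF (limma adjusted p = 0.179) and by 0.69 with HGF (adjusted p = 0.0258, called). Probe 3, designed to a separate transcript at chr12:120657291-120657350, differed by -0.26 and -0.13 (limma adjusted p = 0.551 and 0.785) and correlated with probe 1 at r = -0.07 over the 16 arrays, where probes 1 and 2 correlated at 0.886.

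VCL was higher in 16HBE-ex14 than in 16HBE-WT without HGF by 0.58 on the log2 scale, 1.49-fold and just under the limit (95% interval 0.34 to 0.81, limma adjusted p = 0.00187), as the arrays given above show without overlap. With HGF VCL was still higher by 0.36 (interval 0.12 to 0.59, limma adjusted p = 0.0302). That second difference lost its adjusted p at 2 of 6 alternative settings (up to 0.0666) and without any of 5 arrays (16HBE-WT+HGF replicates 1 and 3, 16HBE-ex14+HGF replicates 1, 2 and 4), up to 0.0782.

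TLN1 encodes talin-1, the integrin activator that acts together with the kindlins. On probe 1 (chr9:35697766-35697825, minus strand) it read 1.81, 1.62, 1.76 and 1.92 in 16HBE-WT and 1.25, 1.35, 1.44 and 1.42 in 16HBE-ex14. With HGF it read 1.85, 1.73, 1.66 and 1.85 in 16HBE-WT and 1.38, 1.23, 1.44 and 1.25 in 16HBE-ex14. All 16HBE-ex14 arrays were lower in both pairs, by 0.42 without HGF (log2 difference -0.42, 95% interval -0.61 to -0.22, limma adjusted p = 0.00498) and by 0.45 with it (-0.45, interval -0.64 to -0.26, limma adjusted p = 0.00259). Scaled to the array median instead, the adjusted p was 0.197 and 0.0968. TLN1 probe 2, designed to another transcript 25632 bases away, did not show it: its differences were 0.13 and 0.32, with intervals from -0.65 to 0.91 and from -0.46 to 1.10. Its values followed the slide, from -1.84 to -0.96 on slide 1 and from -2.82 to -1.85 on slide 2. On slides 1 and 2 the genotype differences of probe 2 were 0.28 and -0.02 without HGF, and 0.17 and 0.47 with it. Those of probe 1 were -0.42 and -0.41 without HGF, and -0.49 and -0.41 with it. The part of the slide in this disagreement was not tested.

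ACTN1, PTK2 and ILK did not pass in any of the 4 comparisons. Their levels over the 16 arrays ran from 4.32 to 4.90 for ACTN1, from -0.25 to 0.39 for PTK2 and from 2.56 to 2.93 for ILK. Between the genotypes ACTN1 differed by -0.03 without HGF (95% interval -0.29 to 0.23) and 0.18 with it (-0.08 to 0.44), and PTK2 by 0.10 (-0.18 to 0.37) and 0.07 (-0.20 to 0.35).

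**Figure D3:**
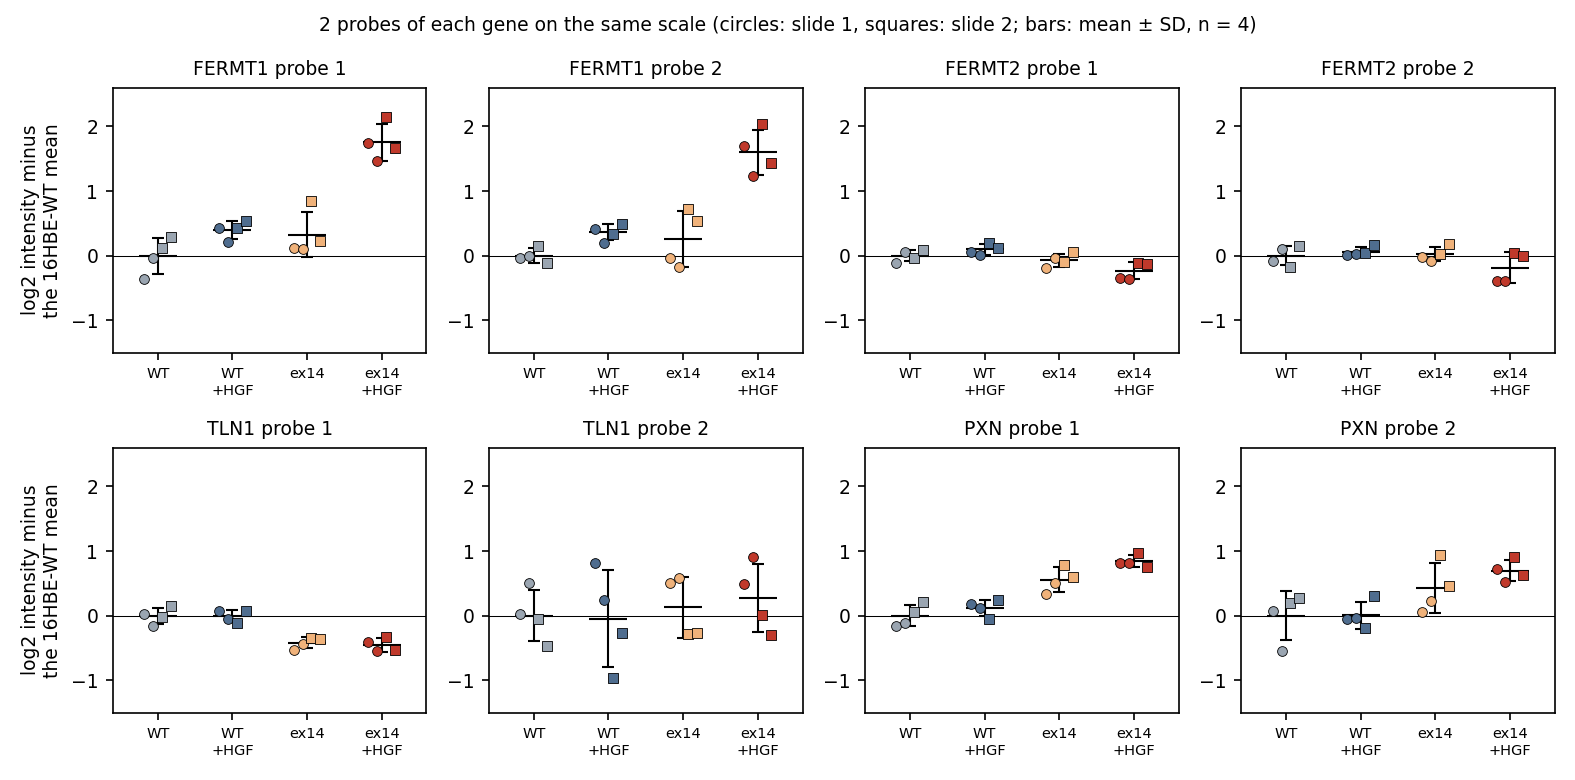
The first 2 probes of FERMT1, FERMT2, TLN1 and PXN (y axis: log2 intensity minus that probe's 16HBE-WT mean; x axis: the 4 groups; circles slide 1, squares slide 2; bars mean ± SD, n = 4). Both FERMT1 probes rise to 16HBE-ex14+HGF, whereas TLN1 probe 1 falls in 16HBE-ex14 and TLN1 probe 2 separates by slide.

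Around these members, 52 of 53 further focal adhesion genes from 7 lists (other kindlins and talins, the ILK-PINCH-parvin complex, adaptors, LIM and actin assembly proteins, crosslinkers, kinases and phosphatases, and inhibitors of integrin activation) and 16 stress fibre genes had a tested probe. PARVB and the stress fibre gene CNN1 would not have passed the filter on dim probes without the arrays of 1 group, so they are left out of the counts, a choice made after their values were seen, which leaves 51 and 15 genes. With HGF in 16HBE-ex14, 6 of the 51 were called, 2 higher (TNS4 and FYN) and 4 lower (NEDD9, TNS3, AJUBA and PDLIM1). That is 11.8%, beside 2.00% of all probes, a share that counts every tested probe and not 1 per gene. The lists were drawn up with earlier results of these data known, and whether their share is larger was not tested. Of the stress fibre genes 3 of 15 were called, all lower (MYL9, TPM1 and CALD1). That is 20.0%, beside the same 2.00% of all probes, and was likewise not tested. In 16HBE-WT 0 of 51 and 0 of 15 were called, beside 0% of all tested probes. The median log2 fold change in 16HBE-ex14 was -0.10 for the adhesion genes and -0.30 for the stress fibre genes. Scaled to the array median, 1 was higher and 9 lower over both sets, where the main scaling gave 2 and 7; without 16HBE-ex14 replicate 2, 6 were called.

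Of the 4 tensins, adaptors that tie integrin tails to actin, TNS4 and TNS3 were called, and TNS1 (log2 difference -0.08) and TNS2 (-0.54) were not. TNS4, a tensin without an actin-binding region, went from 3.74 ± 0.60 to 4.95 ± 0.34 (SD, n = 4), a log2 difference of 1.21 (95% interval 0.68 to 1.74, limma adjusted p = 0.0162). TNS3 went from 2.30 ± 0.41 to 1.13 ± 0.23, a difference of -1.16 (interval -1.64 to -0.68, limma adjusted p = 0.0119). The adjusted p of both rose above 0.05 without 16HBE-ex14 replicate 2, to 0.0580 for TNS4 and 0.0521 for TNS3, and that of TNS4 also without 16HBE-ex14+HGF replicate 3 (0.0645) or 4 (0.0528). In 16HBE-WT both moved the same way with HGF and did not pass. TNS3 differed there by -0.61 (interval -1.08 to -0.13, limma adjusted p = 0.920) and TNS4 by 0.39 (interval -0.15 to 0.92). With HGF TNS3 differed between the genotypes by -0.20 (interval -0.68 to 0.28).

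NEDD9, a docking protein of the Cas family that focal adhesion kinase and Src phosphorylate, fell from 1.04 ± 0.18 to 0.01 ± 0.23 (log2 difference -1.03, 95% interval -1.37 to -0.70, limma adjusted p = 0.00282). A second NEDD9 probe fell by 1.34 (-1.34, limma adjusted p = 0.00181), and another, at -0.31, did not pass. MYL9, a regulatory light chain of non-muscle and smooth muscle myosin, fell from 1.54 ± 0.31 to 0.35 ± 0.23 (-1.19, interval -1.58 to -0.81, limma adjusted p = 0.00271). PARVB, the beta form of parvin, stood well above background on all 4 arrays of 16HBE-ex14+HGF and on none of the 12 others. Its arrays ran from -4.19 to -3.63 there and from -5.02 to -4.14 in 16HBE-ex14, so the groups overlapped, and no test of it is given.

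Between the genotypes without HGF, 4 of the 51 adhesion genes were called (7.84% beside 9.40% of all), BCAR1 higher and 3 lower (NEDD9, KANK1 and FYN). Of the 15 stress fibre genes 3 were called (20.0%, not tested against that share), CALD1 higher and CNN3 and TPM4 lower. Scaled to the array median, 4 were higher and 4 lower over both sets, where the main scaling gave 2 and 5. NEDD9 was lower by 0.87 (log2 difference -0.87, limma adjusted p = 0.00138) and KANK1, which binds talin at the rim of adhesions, by 0.76 (-0.76, limma adjusted p = 0.000437). A second KANK1 probe gave -0.89 (adjusted p = 4.673e-05) and 2 others did not pass, at -0.56 and 0.35. CNN3, an actin-binding calponin, differed by -0.86 (limma adjusted p = 0.00106), and CALD1, caldesmon, by 0.78 (limma adjusted p = 0.000372).

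With HGF 3 of the 51 were called between the genotypes (5.88% beside 10.8% of all), BCAR1 and TNS4 higher and NEDD9 lower. Of the 15 stress fibre genes 4 were called (26.7%, not tested against that share), all lower (MYL9, TPM2, TPM4 and CNN3). NEDD9 differed by -1.87 (95% interval -2.21 to -1.54, limma adjusted p = 2.318e-06), from 1.88 ± 0.11 in 16HBE-WT+HGF to 0.01 ± 0.23 in 16HBE-ex14+HGF. MYL9 differed by -1.28 (limma adjusted p = 0.000177), TNS4 by 1.14 (adjusted p = 0.00445) and TPM2, a tropomyosin, by -0.78 (adjusted p = 0.000215). The test of the difference between HGF responses called 0 of 51 and 0 of 15, beside 0% of all tested probes.

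**Figure D4:**
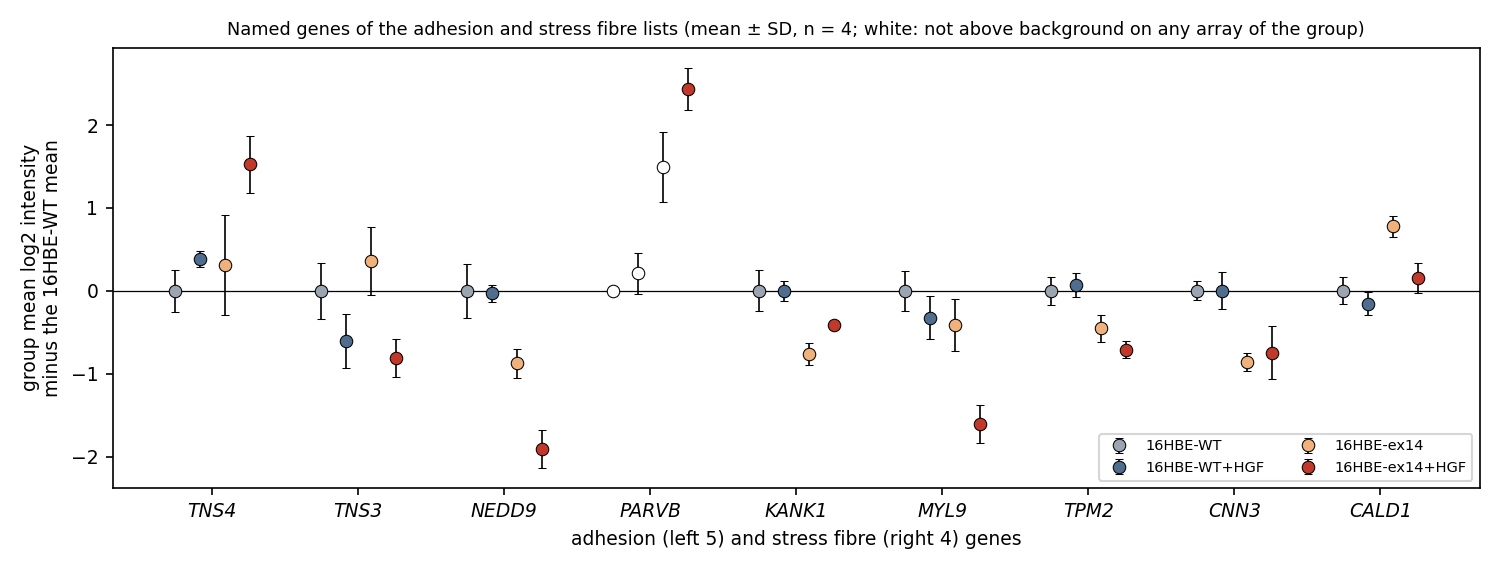
The 9 list genes taken for naming by the size of their change (x axis), as group means of log2 intensity minus the 16HBE-WT mean (y axis, mean ± SD, n = 4 arrays). White points mark groups in which no array exceeded background. TNS4 is highest and NEDD9 and MYL9 are lowest in 16HBE-ex14+HGF, and the PARVB points of the other 3 groups are white.

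The genes whose levels ran most like FERMT1 over the 16 arrays were sought among 20658 named genes by Pearson's r, which here reflects 4 groups of arrays and shared RNA, and is given as a description. Among the 5 nearest were ADAM8 (r = 0.981), NGEF (0.980), NPAS2 (0.976) and CCNE1 (0.975), and 141 genes were above 0.9, beside a median of 0.08. ADAM8, a membrane metalloprotease, had group means of 6.61 and 6.92 in 16HBE-WT without and with HGF, and of 6.97 and 7.81 in 16HBE-ex14. NPAS2, a transcription factor related to CLOCK, had -1.83 and -1.36 in 16HBE-WT, and -1.39 and 0.09 in 16HBE-ex14. Among the 9 partners PXN ran closest, at r = 0.832 and rank 412, and ZYX was farthest, at -0.598.

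The 75th percentile of the arrays lay between 201.8 and 262.8 intensity units in 16HBE-ex14 with or without HGF, above 7 of the 8 arrays of 16HBE-WT (139.5 to 213.0 over all 8). The share of probes well above background was 55.7 to 60.3% in 16HBE-ex14+HGF and 49.0 to 57.0% in the other groups. Both move with the groups, and their part in the results was not tested. A probe of MET outside exon 14 (chr7:116438290-116438349), which therefore checks nothing of the edit, had means from 4.97 to 5.16 and did not pass in any comparison. All 6 epithelial markers were above background on all 16 arrays. With HGF in 16HBE-ex14, 1 of the 6 was called lower, beside 2.00% of all tested probes. Between the genotypes 1 of the 6 was called lower without and with HGF, beside 9.40% and 10.8% of all tested probes. Of 7 fibroblast markers 4 were at 0 arrays, and COL1A1 and PDGFRB were above background on all 16. LUM was above background on 8 arrays, all of 16HBE-WT with or without HGF, so it passed the filter only through that genotype. The summed linear level of these 3 ran from 0.506 to 0.969 in 16HBE-WT and from 0.284 to 0.474 in 16HBE-ex14, beside 1121 or more for the epithelial markers. The sums cover different probes, so their sizes are a rough guide only. Of the 3, 1 was called lower between the genotypes without and with HGF, beside 9.40% and 10.8% of all tested probes. The fibroblast sums move with genotype, and their part in the results was not tested. Of the leukocyte, endothelial and smooth muscle markers 3 of 4, 2 of 3 and 2 of 2 were above background on at least 4 arrays, at summed levels of at most 2.43 in any list. Of the 3 measured leukocyte markers 1 was called lower in 16HBE-ex14 than in 16HBE-WT without HGF, beside 9.40% of all tested probes. In bulk RNA, fewer expressing cells and less RNA per cell cannot be told apart.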

How the data were processed

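RNA of 16 samples of the 16HBE line was labelled with Cy3 and hybridised to 1 one-colour Agilent array each. The authors scanned the arrays and deposited spot intensity values and quality flags from Agilent Feature Extraction 10.7.3.1, per the labels; the processed signal was already background-corrected. A deposited value table that repeats the processed signal was not used. Groups came from the descriptions in the labels; the stimulated 16HBE-WT samples carry YY in their titles, while their genotype field reads WT. The study's methods describe the replicates of a group as separate cultures; replicate numbers here follow slide and row only.

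Control spots and outlier flags were left out, spots of 1 probe averaged, and log2 values centred on each array's 75th percentile. Probes that exceeded background clearly on 4 or more of the 16 arrays were tested with limma 3.58.1 in R 4.3.3, with 1 mean per group over all arrays, which share 1 estimate of spread, and Benjamini-Hochberg adjustment per comparison over all tested probes. The fit was tested on simulated data. The number of arrays limits the precision. Of the 16 probe accessions 13 matched a RefSeq symbol, the same as the array's. The 5 called list genes with the largest change per comparison and the 5 genes most like FERMT1 were taken for naming; 1 of the latter is not reported here. The members, lists and tests were chosen with earlier results of these data known.

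Alternatives were normexp background correction (offset 50), quantile normalization, the array median as centre, testing all probes without the filter, slide or slide and row as a block, the median of a gene's probes, and leaving out each array; those for list genes were added after seeing the data.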

Additional observations from a re-analysis of the deposited data

Results flagged for a closer look

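In 3 of 60 groups of 4 arrays over the 15 tested member probes, 1 array lay far from the other 3 (Dixon's test at 95%), which is the number that chance gives at 1 in 20. ACTN1 read 4.74 on 16HBE-WT+HGF replicate 4, where the others read 4.42 to 4.45. ILK read 2.93 on 16HBE-WT replicate 4, where the others read 2.71 to 2.73. PARVA read -0.15 on 16HBE-ex14+HGF replicate 1, where the others read 0.06 to 0.08. No difference of ACTN1 or ILK passed the test, and the PARVA difference between the stimulated genotypes stayed between 0.80 and 0.89 on the log2 scale with any 1 array left out.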

How the results depend on the processing

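With HGF in either genotype, and for the difference of the HGF responses, 0 partner genes were called under every alternative. Between the genotypes without HGF, 3 genes were called in place of 1 with normexp background correction and with scaling to the array median (PARVA, PXN and VCL, the latter 2 within the fold limit otherwise), and from 1 to 3 with 1 array left out. With HGF 1 gene was called in place of 2 with normexp, where PARVA, at 0.54, was under the fold limit. The FERMT1 difference with HGF stayed between 1.27 and 1.43 in 16HBE-ex14 over the other settings and between 1.30 and 1.60 with 1 array left out. These ranges only describe the rise FERMT1 was chosen on, in the same arrays. Scaling to the array median moved the median of all probes from 0.05 to -0.11 with HGF in 16HBE-ex14 and from -0.02 to 0.12 between genotypes without HGF, and normexp moved the latter to -0.13. Signs turned only for differences near 0 that had not passed, except PARVB, which was below background. Scaling to the array median gave -0.026 for ACTN1 with HGF in 16HBE-ex14, -0.021 for FERMT2 with HGF in 16HBE-WT, 0.069 for FERMT2 and 0.109 for ACTN1 between genotypes without HGF, and 0.085 for ILK with HGF. Normexp gave 0.040 for ACTN1 and -0.041 for PARVB without HGF, and 0.070 for ILK with HGF. Quantile normalization gave -0.007 for ZYX and -0.008 for ILK without HGF. With 1 array left out, the HGF difference in 16HBE-WT ran from -0.058 to 0.043 for TLN1, from -0.143 to 0.020 for PTK2 and from -0.055 to 0.025 for PARVA; that between genotypes from -0.116 to 0.052 for ACTN1 without HGF, and from -0.012 to 0.151 for PTK2 and -0.078 to 0.052 for ILK with HGF; and the difference of responses from -0.082 to 0.019 for TLN1, -0.108 to 0.055 for PTK2 and -0.127 to 0.003 for ILK. The cause of these moves was not tested. As a replicate block, slide and row left 0, 0, 1, 2 and 0 members called in the 5 comparisons and lost the adjusted p of VCL with HGF in 16HBE-ex14 (0.0570); the same-numbered arrays correlated at 0.028 to 0.268 after removing group means, so the numbers were not taken to pair the samples. Slide as a block moved no member across the threshold of its test. The number of arrays limits how small a difference could pass.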
